A study of Mus musculus with 12 samples.

Results

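Immunoglobulin gene segments are the V, J and constant genes of the heavy, kappa and lambda loci, from which B cells assemble and express antibody chains. They were read here in RNA from mouse spleen T cells, where their counts serve as a reading of B-lineage RNA carried in the culture. The members were the genes of the count table whose symbols name an immunoglobulin V, J or constant gene of these loci and which had at least 10 counts over the 12 libraries. Of 373 such symbols, 119 had no count in any library, 52 had 1 to 9 counts, and 202 were kept, out of 53762 genes in all. The lowest member, Igkv4-62, had 11 counts, and 4 symbols just outside (Ighv1-78, Ighv2-9-1, Igkv1-108 and Igkv8-18) had 9 counts each.

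The T cells came from spleen and were cultured with Res_shFabp7 cells or with Res_ctrl cells, for 48H or 24H, which gave 4 groups of 3 libraries. The groups are called shFabp7 48H, ctrl 48H, shFabp7 24H and ctrl 24H below, and Res_shFabp7 and Res_ctrl are the shFabp7 and the ctrl partner. Fabp7 encodes a fatty acid binding protein, a short hairpin RNA lowers the RNA it matches, and the series title concerns cancer cells and ferroptosis. The labels give neither the strain nor the age of the mice, nor how the T cells were isolated, nor what the Res cells were derived from, and they do not say whether the replicates came from separate animals or cultures. The p-values below therefore measure only the spread between these libraries, which may be technical.

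Each developing B cell joins 1 V, sometimes a D, and 1 J segment into the exon for the part of the antibody that binds antigen, and RNA splicing links that exon to a constant gene. Kappa or lambda light chains pair with heavy chains, and the heavy constant gene sets the class, IgM and IgD in naive B cells and IgG, IgE or IgA after class switching. T cells rearrange T cell receptor loci instead. Plasma cells, the secreting end of the B lineage, hold far more immunoglobulin RNA per cell than resting B cells. In bulk RNA, fewer cells of a type and less RNA per cell cannot be told apart, and neither can the cell that held the RNA.

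The 202 members comprised 88 heavy V, 90 kappa V and 3 lambda V segments, 8 heavy, 1 kappa and 3 lambda constant genes, and 4 heavy and 5 kappa J segments. All 202 were found in the GENCODE M21 annotation, which calls 169 of them V genes, 12 V pseudogenes, 12 constant genes and 9 J genes, on mouse chromosomes 12 (heavy), 6 (kappa) and 16 (lambda). Exons of V members spanned 338 to 480 bases (median 359), those of J members 38 to 100 bases and those of heavy constant genes 1326 to 2678 bases.

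Many V segments are near copies, so reads could be split between them or dropped by the counting. Of the 196 members with a transcript of at least 50 bases, 37 shared no 50-base stretch with another annotated immunoglobulin symbol, member or not. The median member shared 21.3% of its stretches (highest 97.4%). The sequences below are those of V segments on which a difference between partners turned, followed by a pair of J segments. Where a V segment is compared, a counted segment of its family is printed beside it, and no search for the closest relative was made. They are GENCODE M21 transcript sequences of the GRCm38 build, all from chromosome 6, written 5′ to 3′, with the last 300 bases of the coding part shown for V segments. Capitals mark the bases not matched in the partner of the pair. In Igkv12-98, searched on the transcript strand alone, they mark the last TANTANTGN, the tyrosine, tyrosine and cysteine codons ahead of the loop that touches antigen.
Igkv4-69: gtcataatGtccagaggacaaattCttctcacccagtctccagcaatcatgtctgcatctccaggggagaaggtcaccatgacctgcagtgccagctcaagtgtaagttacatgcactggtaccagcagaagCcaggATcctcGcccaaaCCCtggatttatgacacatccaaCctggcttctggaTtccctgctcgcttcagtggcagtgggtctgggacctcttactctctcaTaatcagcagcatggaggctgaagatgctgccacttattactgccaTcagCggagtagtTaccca
Igkv4-59: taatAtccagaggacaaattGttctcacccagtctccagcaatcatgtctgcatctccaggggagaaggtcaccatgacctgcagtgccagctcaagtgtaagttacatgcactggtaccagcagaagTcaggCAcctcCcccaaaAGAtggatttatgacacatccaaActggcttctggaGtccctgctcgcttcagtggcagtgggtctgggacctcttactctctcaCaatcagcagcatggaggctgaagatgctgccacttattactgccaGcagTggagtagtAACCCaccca
Igkv13-85: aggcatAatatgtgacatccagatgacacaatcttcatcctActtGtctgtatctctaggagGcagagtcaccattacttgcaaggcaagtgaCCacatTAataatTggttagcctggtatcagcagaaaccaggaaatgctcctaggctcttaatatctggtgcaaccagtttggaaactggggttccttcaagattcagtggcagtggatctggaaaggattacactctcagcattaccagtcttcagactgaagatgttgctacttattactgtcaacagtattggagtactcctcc
Igkv13-84: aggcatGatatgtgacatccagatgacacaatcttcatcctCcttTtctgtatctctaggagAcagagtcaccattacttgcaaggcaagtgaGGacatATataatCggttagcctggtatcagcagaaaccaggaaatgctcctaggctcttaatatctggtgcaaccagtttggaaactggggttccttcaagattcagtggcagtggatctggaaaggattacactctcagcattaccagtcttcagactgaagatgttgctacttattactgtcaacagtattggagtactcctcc
Igkj4: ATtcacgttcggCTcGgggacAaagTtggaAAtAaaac
Igkj5: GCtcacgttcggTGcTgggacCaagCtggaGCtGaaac
Igkv12-98: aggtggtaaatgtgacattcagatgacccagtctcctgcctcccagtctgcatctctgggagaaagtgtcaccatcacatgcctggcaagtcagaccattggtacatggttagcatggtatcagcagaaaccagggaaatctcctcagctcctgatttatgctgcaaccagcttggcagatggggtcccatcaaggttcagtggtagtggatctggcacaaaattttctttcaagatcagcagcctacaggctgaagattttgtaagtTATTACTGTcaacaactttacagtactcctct

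Igkv4-69 and Igkv4-59 were identical at 331 of 348 aligned positions (95.1%), and Igkv13-85 and Igkv13-84 at 334 of 347 (96.3%). Of their 50-base stretches, Igkv4-69 shared 28.1% with other annotated immunoglobulin symbols, Igkv4-59 74.3% and Igkv13-85 48.3%. Values of these segments are therefore uncertain by whatever reads the counting assigned between copies. Igkv12-98 shared none. The short Igkj4 and Igkj5 segments matched at 28 of 38 positions.

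Library totals ran from 31952873 to 40638685 counts, and 16945 genes passed the filter on low counts. Of the 202 members, 149 passed and 53, with 11 to 118 counts in all, did not. Levels are CPM, counts scaled to a common library size with TMM factors, means are given ± SD over 3 libraries, and log2 fold changes ± SE. Adjusted p-values come from edgeR's quasi-likelihood test with Benjamini-Hochberg adjustment over all 16945 genes, and a gene below 0.05 is called. The SE was derived from that test, as the absolute log2 fold change divided by the square root of the F statistic.

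Immunoglobulin RNA was present in every library, and its summed level was lower at 48H than at 24H with either partner. The members summed to 537, 604 and 757 CPM in shFabp7 48H and to 590.4, 487 and 663 CPM in ctrl 48H, against 1735, 1477 and 1819 CPM in shFabp7 24H and 1654, 1629 and 1727 CPM in ctrl 24H. The 6 libraries of 48H all lay below the 6 of 24H, and the partners overlapped at both times. As a share of all counts, the members held 0.0556 to 0.0779% in shFabp7 48H, 0.0533 to 0.0727% in ctrl 48H, 0.138 to 0.169% in shFabp7 24H and 0.155 to 0.166% in ctrl 24H. The log2 ratio of the summed means, 48H over 24H, was -1.41 with the shFabp7 partner and -1.53 with the ctrl partner, and shFabp7 over ctrl it was 0.13 at 48H and 0.01 at 24H. No test was made on sums, since the members were chosen with results of these data known.

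**Figure D1:**
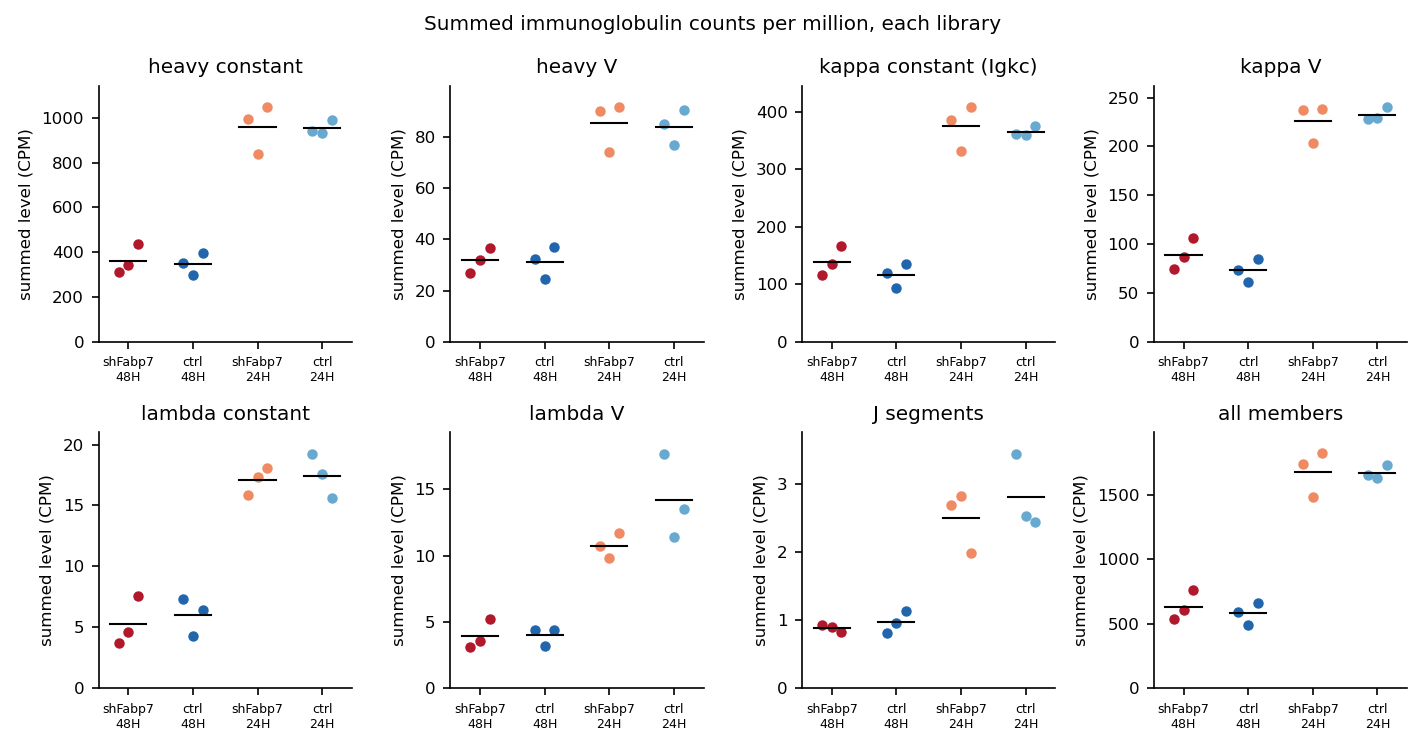
Summed level of each class of immunoglobulin gene in CPM, 1 panel a class and 1 point a library, with a line at the mean of 3 libraries, for shFabp7 48H, ctrl 48H, shFabp7 24H and ctrl 24H. In all 8 panels the 48H libraries lie below the 24H libraries.

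All classes showed the time difference, as the plot of summed levels shows. Heavy constant genes summed to 363 ± 64.0 CPM in shFabp7 48H and 348 ± 48.2 CPM in ctrl 48H, against 960.1 ± 109.7 CPM in shFabp7 24H and 954 ± 32.0 CPM in ctrl 24H. Heavy V segments summed to 31.8 ± 4.95 CPM in shFabp7 48H and 31.3 ± 6.39 CPM in ctrl 48H, against 85.4 ± 9.86 CPM in shFabp7 24H and 84.1 ± 6.84 CPM in ctrl 24H. Kappa V segments summed to 89.1 ± 16.1 CPM in shFabp7 48H and 73.3 ± 11.4 CPM in ctrl 48H, against 226 ± 19.5 CPM in shFabp7 24H and 233 ± 6.81 CPM in ctrl 24H. The 9 short J segments together summed to 0.888 ± 0.0497 CPM in shFabp7 48H and 0.968 ± 0.158 CPM in ctrl 48H, against 2.50 ± 0.449 CPM in shFabp7 24H and 2.81 ± 0.552 CPM in ctrl 24H.

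Per kilobase of exon, the kappa constant gene and the summed kappa V segments stood at near levels in each group. Igkc averaged 261 CPM per kb in shFabp7 48H and 218 in ctrl 48H, against 704 in shFabp7 24H and 686 in ctrl 24H, and the kappa V sum 239, 196, 608 and 624 CPM per kb in the same order. Ighm, the IgM heavy constant gene, averaged 159.8, 160.1, 428 and 431 CPM per kb in that order. Igkc therefore stood above Ighm per length in all 4 groups. The summed lambda V segments averaged 10.4 CPM per kb at 48H with either partner, 28.2 in shFabp7 24H and 37.1 in ctrl 24H, and lambda V segments took 3.96 to 7.17% of light V counts across the libraries.

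Between 48H and 24H, most of the tested members fell together. With the shFabp7 partner 118 of 149 fell and none rose, and with the ctrl partner 123 of 149 fell and none rose. Over all genes tested, 30.2% were called lower and 35.9% higher at 48H with the shFabp7 partner, and 32.0% lower and 35.8% higher with the ctrl partner, beside 79.2% and 82.6% of the tested members lower. The median log2 fold change of the tested members was -1.45 with the shFabp7 partner, beside 0.06 over all genes, and -1.55 with the ctrl partner, beside 0.04 over all genes. In 104 members with the shFabp7 partner and 119 with the ctrl partner, all 3 libraries of 48H lay below all 3 of 24H, which held for 32.9% and 32.0% of all genes. These counts leave out the 53 members under the filter.

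Most members called over time were called with both partners, whose libraries are separate. Of the tested members 104 were called lower with both partners, which is 88.1% of the shFabp7 list and 84.6% of the ctrl list. These shares lie near the 79.2% and 82.6% of all tested members that were called with each partner. Over all genes called lower, the shared 4517 were 88.2% of the shFabp7 list and 83.4% of the ctrl list, close to the shares of the members. Another 14 were called with the shFabp7 partner alone and 19 with the ctrl partner alone, and a member called with 1 partner is not thereby shown to differ between them. The 12 called with neither were mostly of low level, with a median of 0.341 CPM against 1.64 CPM in those called with both, and the most abundant of them were Ighg2c, Ighv1-18 and Ighd. Igkv12-98, Ighv9-4 and Ighv1-74 with the shFabp7 partner, and Ighv1-26 with the ctrl partner, were the tested members with a log2 fold change above 0, and none of these 4 was called. These members were named after their values were seen.

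**Figure D2:**
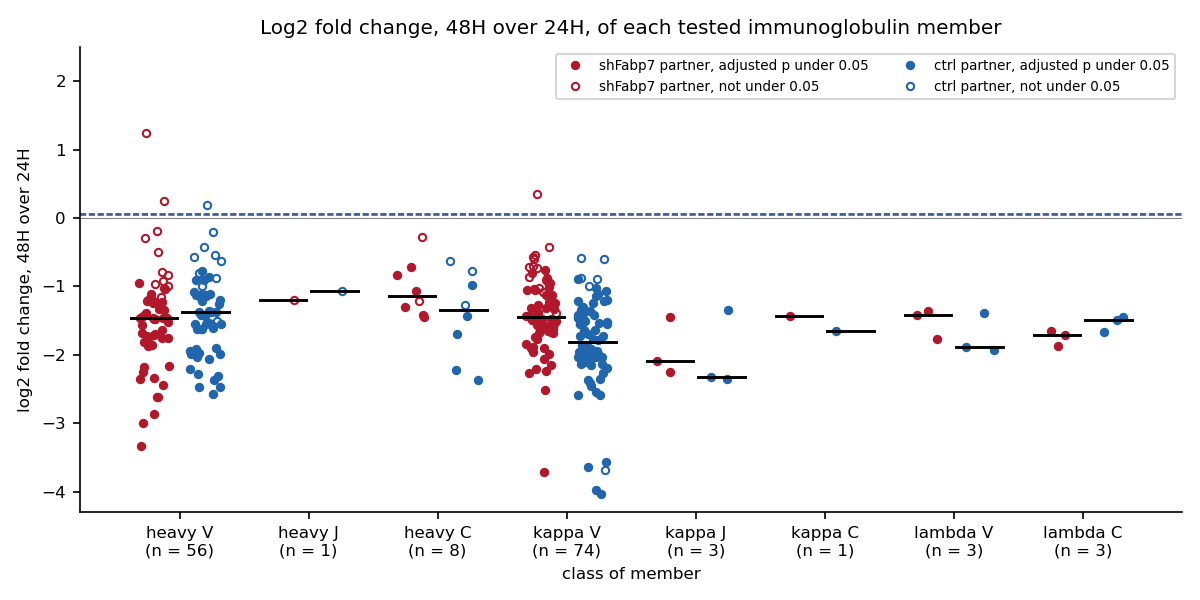
Log2 fold change, 48H over 24H, of each of the 149 tested members by class, shFabp7 partner in red and ctrl partner in blue. Filled points passed an adjusted p of 0.05, black bars are class medians and dashed lines the medians of all genes tested (0.06 and 0.04). All class medians lie below -1.

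The fall was called in members of every class except the heavy J segments, whose 1 tested member also had a negative log2 fold change but missed the threshold. Of the 56 heavy V segments tested, 44 fell with the shFabp7 partner (class median -1.46) and 41 with the ctrl partner (-1.38). Of the 74 kappa V segments, 58 fell with the shFabp7 partner (-1.45) and 67 with the ctrl partner (-1.82). All 3 lambda V segments, all 3 lambda constant genes and all 3 tested kappa J segments fell with both partners. Of the 8 heavy constant genes, 6 fell with the shFabp7 partner (median -1.14) and 5 with the ctrl partner (-1.35). Ighj4, the 1 heavy J segment tested, had a log2 fold change of -1.20 ± 0.57 with the shFabp7 partner (adjusted p = 0.0613) and -1.07 ± 0.48 with the ctrl partner (adjusted p = 0.0509), and Ighj2 was under the filter.

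Ighm, which encodes the constant part of IgM, was the most abundant member in CPM. It had 258, 285 and 361 CPM in shFabp7 48H and 308, 256 and 341 CPM in ctrl 48H, against 836, 706 and 879.6 CPM in shFabp7 24H and 795, 792 and 849 CPM in ctrl 24H. The times did not overlap, while the partners did at both times. The log2 fold change, 48H over 24H, was -1.42 ± 0.15 with the shFabp7 partner (adjusted p = 1.6e-05) and -1.43 ± 0.15 with the ctrl partner (adjusted p = 1.46e-05). Ighd, the IgD gene that naive B cells express along with Ighm by splicing of 1 long RNA, was far lower. Per kilobase it averaged 0.262 CPM in shFabp7 48H and 0.252 in ctrl 48H, against 0.325 in shFabp7 24H and 0.431 in ctrl 24H, and its time change was not called (adjusted p = 0.576 with the shFabp7 partner and 0.0834 with the ctrl partner).

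Igha, the constant gene of IgA, the class of mucosal secretions, was the next heavy constant gene. It had 40.0, 39.9 and 52.0 CPM in shFabp7 48H and 32.1, 30.8 and 38.8 CPM in ctrl 48H, against 121, 102 and 137 CPM in shFabp7 24H and 109, 108 and 111 CPM in ctrl 24H. All 48H libraries lay below all 24H libraries. Its log2 fold change over time was -1.45 ± 0.13 with the shFabp7 partner (adjusted p = 3e-06) and -1.69 ± 0.14 with the ctrl partner (adjusted p = 8.4e-07). Between partners at 48H it was 0.37 ± 0.14 (adjusted p = 0.0674), and every shFabp7 library lay above every ctrl library.

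The 4 IgG constant genes, which serve the switched antibody classes of serum, all had negative log2 fold changes over time with both partners. Not all of these were called, and differences between the 4 genes were not tested. Ighg2b had 3.37, 2.97 and 4.10 CPM in shFabp7 48H and 1.55, 1.78 and 3.07 CPM in ctrl 48H, against 9.07, 9.56 and 7.12 CPM in shFabp7 24H and 9.25, 10.0 and 10.8 CPM in ctrl 24H. It fell over time by 1.30 ± 0.17 on the log2 scale with the shFabp7 partner (adjusted p = 1.07e-07) and by 2.22 ± 0.18 with the ctrl partner (adjusted p = 6.01e-12). Ighg3 averaged 6.04 ± 2.04 CPM in shFabp7 48H and 4.54 ± 0.694 CPM in ctrl 48H, against 9.88 ± 0.142 CPM in shFabp7 24H and 9.04 ± 3.14 CPM in ctrl 24H, and its log2 fold changes over time were -0.72 ± 0.27 (adjusted p = 0.0356) and -0.99 ± 0.28 (adjusted p = 0.00844). The call with the shFabp7 partner was lost without any 1 of the 3 shFabp7 24H libraries or of replicates 1 and 2 of shFabp7 48H (-0.99 to -0.49 over the omissions), and under library totals or the replicate block.

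Ighg1 and Ighg2c varied widely among the 24H replicates. Ighg1 had 2.97, 3.45 and 3.44 CPM in shFabp7 48H, against 8.59, 3.52 and 5.44 CPM in shFabp7 24H, a log2 fold change of -0.84 ± 0.33 (adjusted p = 0.0425). It was no longer called without replicate 1 of shFabp7 24H, where it was -0.49, nor without replicate 3 of that group or any library of shFabp7 48H. Nor was it called under upper-quartile scaling or library totals. With the ctrl partner it had 3.41, 3.32 and 2.80 CPM at 48H, against 6.48, 2.89 and 5.46 CPM at 24H, and was not called (-0.63 ± 0.33, adjusted p = 0.114). Ighg2c had 1.52, 1.39 and 1.16 CPM in shFabp7 48H and 1.39, 1.16 and 1.69 CPM in ctrl 48H, against 3.27, 1.61 and 4.57 CPM in shFabp7 24H and 1.66, 6.13 and 2.36 CPM in ctrl 24H. Its log2 fold changes over time of -1.22 (adjusted p = 0.0676) and -1.27 (adjusted p = 0.0529) were not called.

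Ighe, the constant gene of IgE, the class bound by mast cells and basophils, fell over time with both partners and was called between partners at 48H as well. It had 1.76, 2.04 and 3.85 CPM in shFabp7 48H and 0.463, 0.592 and 1.49 CPM in ctrl 48H, against 5.45, 4.46 and 5.95 CPM in shFabp7 24H and 4.58, 4.52 and 4.13 CPM in ctrl 24H. Replicate 3 was the highest of its group at 48H with either partner. Over time its log2 fold change was -1.06 ± 0.30 with the shFabp7 partner (adjusted p = 0.00505) and -2.36 ± 0.34 with the ctrl partner (adjusted p = 1.65e-05).

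Among light-chain constant genes, Igkc dominated. It had 116, 135 and 167 CPM in shFabp7 48H and 119, 93.7 and 135 CPM in ctrl 48H, against 385, 331 and 408 CPM in shFabp7 24H and 361, 359.8 and 374 CPM in ctrl 24H. Times did not overlap, and the log2 fold change over time was -1.43 ± 0.16 with the shFabp7 partner (adjusted p = 3.89e-05) and -1.65 ± 0.16 with the ctrl partner (adjusted p = 1.35e-05). The lambda constant genes Iglc1, Iglc2 and Iglc3 fell by 1.66 ± 0.36, 1.71 ± 0.33 and 1.87 ± 0.26 on the log2 scale with the shFabp7 partner. With the ctrl partner they fell by 1.44 ± 0.34, 1.67 ± 0.33 and 1.49 ± 0.24, with adjusted p-values of at most 0.00336 over both partners.

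The heavy V segments were spread over many genes of low level. Ighv2-9 held the most V counts of its locus in 8 of the 12 libraries, with 1.97, 2.63 and 2.22 CPM in shFabp7 48H and 2.83, 1.57 and 2.69 CPM in ctrl 48H, against 9.004, 5.53 and 7.66 CPM in shFabp7 24H and 6.95, 5.94 and 7.85 CPM in ctrl 24H. It fell by 1.71 ± 0.19 on the log2 scale with the shFabp7 partner (adjusted p = 6.01e-09) and by 1.55 ± 0.19 with the ctrl partner (adjusted p = 3.08e-08). The other 4 most abundant heavy V segments, Ighv1-7, Ighv1-54, Ighv1-9 and Ighv6-6, also fell with both partners, by 1.20 to 1.76 with the shFabp7 partner and by 1.19 to 1.62 with the ctrl partner. Ighv11-2, the only member of its family here and a segment known for its use by the self-renewing B-1 cells of mice, averaged 1.42 ± 0.532 CPM in shFabp7 48H and 1.54 ± 0.407 CPM in ctrl 48H, against 3.11 ± 0.232 CPM in shFabp7 24H and 3.26 ± 0.395 CPM in ctrl 24H. It was named for its role after its values were seen, and its falls of 1.11 ± 0.23 and 1.08 ± 0.22 were both called (adjusted p = 6.43e-05 and 6.48e-05).

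Among kappa V segments Igkv1-110 led in 11 of the 12 libraries. It had 6.98, 9.08 and 10.2 CPM in shFabp7 48H and 7.99, 5.81 and 8.23 CPM in ctrl 48H. At 24H it had 21.6, 15.6 and 16.3 CPM with the shFabp7 partner and 16.2, 18.8 and 17.3 CPM with the ctrl partner. Of its 50-base stretches, 50.9% recur in other annotated immunoglobulin symbols, members or not. The log2 fold change over time was -1.03 ± 0.15 with the shFabp7 partner (adjusted p = 3.32e-06) and -1.25 ± 0.15 with the ctrl partner (adjusted p = 2.78e-07). Igkv1-135, Igkv14-126 and Igkv6-15 fell by 1.11 to 1.46 with the shFabp7 partner and by 1.30 to 2.03 with the ctrl partner. Igkv1-117 fell by 0.75 ± 0.28 with the shFabp7 partner (adjusted p = 0.0362, and -1.17 without replicate 3 of shFabp7 48H) and by 1.41 ± 0.28 with the ctrl partner (adjusted p = 0.00108). The shFabp7 call of Igkv1-117 was lost without replicate 1 or 3 of shFabp7 24H or replicate 1 or 2 of shFabp7 48H (-0.53 at the least). It was also lost under library totals and with these 2 groups fitted alone.

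The 3 lambda V segments fell as well. Iglv1 had 1.21, 2.06 and 3.49 CPM in shFabp7 48H and 1.99, 2.42 and 2.74 CPM in ctrl 48H, against 6.86, 4.09 and 6.85 CPM in shFabp7 24H and 9.44, 8.09 and 8.93 CPM in ctrl 24H. Its log2 fold change over time was -1.42 ± 0.29 with the shFabp7 partner and -1.88 ± 0.28 with the ctrl partner, beside -1.36 ± 0.30 and -1.92 ± 0.30 for Iglv2 and -1.77 ± 0.40 and -1.38 ± 0.38 for Iglv3. Of the J segments, whose sequences are given above for 2 of them, Igkj5 had 0.143, 0.170 and 0.0832 CPM in shFabp7 48H and 0.0818, 0.103 and 0.101 CPM in ctrl 48H, against 0.609, 0.939 and 0.391 CPM in shFabp7 24H and 0.707, 0.436 and 0.370 CPM in ctrl 24H. Igkj5 fell by 2.25 ± 0.51 with the shFabp7 partner (adjusted p = 0.00024) and by 2.35 ± 0.55 with the ctrl partner (adjusted p = 0.000315). Igkj4 fell by 2.10 ± 0.53 and 1.35 ± 0.50 (adjusted p = 0.0182 with the ctrl partner, lost without replicate 1 or 2 of ctrl 24H or replicate 2 of ctrl 48H, -0.98 at the least). Igkj2 fell by 1.45 ± 0.61 (adjusted p = 0.0355, and -2.25 without replicate 3 of shFabp7 48H) and 2.33 ± 0.64. The shFabp7 call of Igkj2 was lost without replicate 2 of shFabp7 24H or replicate 1 or 2 of shFabp7 48H. It was also lost under library totals and with no filter on low counts.

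The largest falls among members averaging at least 0.5 CPM in a compared group were in V segments of low count. With the shFabp7 partner they were Ighv1-82 (-2.62 ± 0.58), Ighv1-15 (-2.61 ± 0.63), Igkv4-50 (-2.52 ± 0.60) and Ighv1-26 (-2.44 ± 0.80). Igkv4-50 stood at -4.50 without replicate 3 of shFabp7 48H. With the ctrl partner they were Igkv13-85 (-3.97 ± 0.78), Igkv13-84 (-3.64 ± 0.70), Igkv11-125 (-3.56 ± 1.09) and Igkv3-7 (-2.59 ± 0.32). Igkv13-84 stood at -5.94 without replicate 2 of ctrl 48H, the library that holds most of its counts there.

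At 24H few immunoglobulin genes were called between partners. Of the 149 tested members none was called higher and 1, Igkv12-98, was called lower with the shFabp7 partner, where 6.22% of all genes were called higher and 4.65% lower. At an unadjusted p under 0.05 there were 12 members in either direction, where 25.0% of all genes passed. DESeq2 called 0, and the count was 5 with no filter on low counts and 5 with these 2 groups fitted alone. The members' median log2 fold change was 0.01 beside -0.00 over all genes, with 76 above 0 and 73 below. Igkv12-98 had 0.320, 0.268 and 0.331 CPM in shFabp7 24H, against 1.23, 0.980 and 0.910 CPM in ctrl 24H, without overlap (-1.75 ± 0.47, adjusted p = 0.0136). That call was lost without replicate 1 of ctrl 24H or without replicate 1 or 2 of shFabp7 24H (-1.81 to -1.60), and the count of 1 became 3 without replicate 2 of ctrl 24H and 2 without replicate 3 of shFabp7 24H.

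At 48H a small set of members, most of them kappa V segments, was higher with the shFabp7 partner. Of the 149 tested, 11 rose (7.38%) and 1 fell, where 19.9% of all genes rose and 11.6% fell. The members' median log2 fold change was 0.14 beside 0.01 over all genes, with 101 above 0 and 48 below. By class, 7 of 74 kappa V segments rose (median 0.27), 2 of 56 heavy V segments rose and 1 fell (median -0.02), and 2 of 8 heavy constant genes rose. The most abundant members, Ighm (-0.00, adjusted p = 0.99) and Igkc (0.26 ± 0.16, adjusted p = 0.275), were not called.

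**Figure D3:**
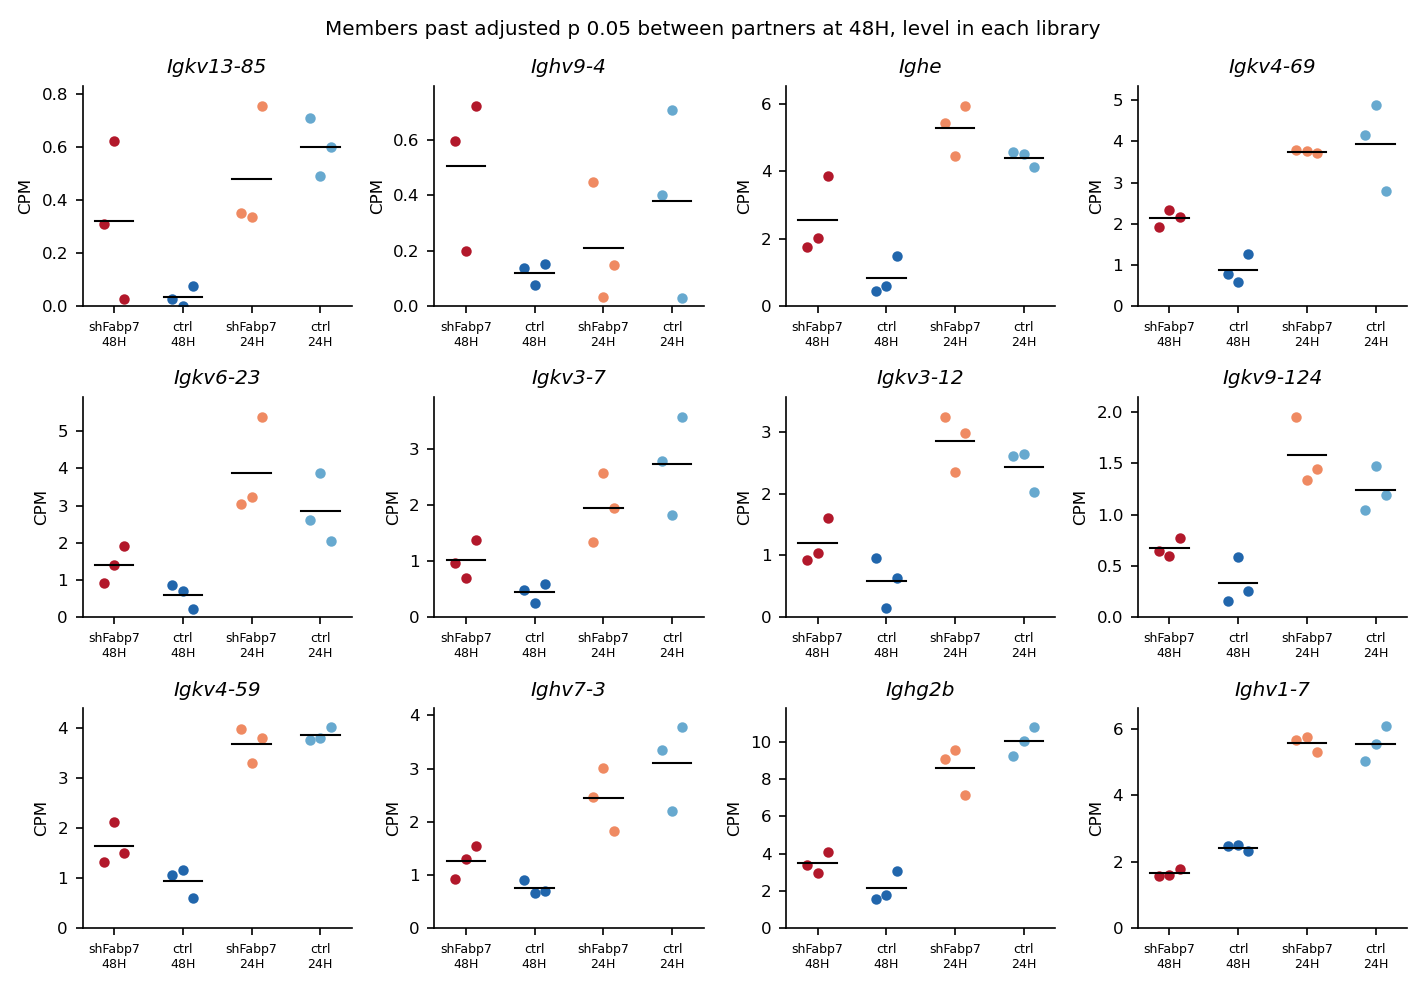
Level in CPM of the 12 members called between partners at 48H, 1 panel a member and 1 point a library, with a line at the mean of 3 libraries. In Igkv4-69 the 3 libraries of shFabp7 48H (1.92 to 2.35 CPM) lie above the 3 of ctrl 48H (0.592 to 1.26 CPM), in Ighv1-7 they lie below, and in Igkv13-85 and Ighg2b the 48H groups overlap.

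Igkv4-69 had the lowest adjusted p among them. It had 1.92, 2.35 and 2.16 CPM in shFabp7 48H, against 0.790, 0.592 and 1.26 CPM in ctrl 48H, and 3.78, 3.76 and 3.73 CPM in shFabp7 24H, against 4.15, 4.87 and 2.79 CPM in ctrl 24H. The partners were apart at 48H and overlapped at 24H, with log2 fold changes of 1.27 ± 0.24 (adjusted p = 9.61e-05) and -0.07 ± 0.20 (adjusted p = 0.871). Its close relative Igkv4-59, printed beside it above, had 1.33, 2.12 and 1.50 CPM in shFabp7 48H, against 1.06, 1.16 and 0.604 CPM in ctrl 48H, a log2 fold change of 0.80 ± 0.24 (adjusted p = 0.00841). Reads common to both could add to either.

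The 2 heavy constant genes called at 48H were Ighe and Ighg2b, whose library values are given above. Ighe was higher with the shFabp7 partner by 1.56 ± 0.36 (adjusted p = 0.00366), with every shFabp7 library above every ctrl library. Ighg2b was higher by 0.70 ± 0.19 (adjusted p = 0.00605), with the lowest shFabp7 library, at 2.97 CPM, under the highest ctrl library, at 3.07 CPM. Without that ctrl library, replicate 3, its difference was 1.06.

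Igkv13-85 had the largest fold change but few counts. It had 0.309, 0.622 and 0.0277 CPM in shFabp7 48H, against 0.0273, 0 and 0.0755 CPM in ctrl 48H, from 13, 22 and 1 counts against 1, 0 and 3. The groups overlapped, and the log2 fold change of 3.07 ± 0.85 (adjusted p = 0.00556) became 2.23 and was no longer called without replicate 2 of shFabp7 48H. Igkv13-84, its near copy, differed by 1.48 ± 0.85 between partners at 48H and was not called (adjusted p = 0.202).

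The remaining 6 V segments that rose were of similar low level. Igkv6-23 had 0.926, 1.41 and 1.91 CPM in shFabp7 48H, against 0.872, 0.695 and 0.227 CPM in ctrl 48H (1.24 ± 0.42, adjusted p = 0.0303, lost in 4 of 6 omissions of 1 library, 0.84 to 1.61). Igkv3-7 had 0.974, 0.707 and 1.39 CPM in shFabp7 48H, against 0.491, 0.257 and 0.604 CPM in ctrl 48H (1.17 ± 0.35, adjusted p = 0.0108, lost without replicate 2 of ctrl 48H or replicate 3 of shFabp7 48H). Ighv9-4 had 0.594, 0.198 and 0.721 CPM in shFabp7 48H, against 0.136, 0.0772 and 0.151 CPM in ctrl 48H (2.03 ± 0.75, adjusted p = 0.0405). The Ighv9-4 call was lost under upper-quartile or library-total scaling and without any library of ctrl 48H or replicate 1 or 3 of shFabp7 48H (1.71 to 2.40). Igkv3-12 (1.04 ± 0.35, adjusted p = 0.0249), Igkv9-124 (0.98 ± 0.37, adjusted p = 0.0423) and Ighv7-3 (0.72 ± 0.28, adjusted p = 0.043) completed the 11. Igkv4-59 and these last 3 lay outside the rule for naming genes and were named after their values were seen.

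Ighv1-7 was the 1 member lower with the shFabp7 partner at 48H. It had 1.57, 1.61 and 1.77 CPM in shFabp7 48H, against 2.48, 2.50 and 2.32 CPM in ctrl 48H, without overlap (-0.56 ± 0.17, adjusted p = 0.00908). At 24H the partners overlapped, with 5.67, 5.77 and 5.32 CPM in shFabp7 24H, against 5.04, 5.56 and 6.09 CPM in ctrl 24H. The difference of the partner effects, 48H minus 24H, was -0.56 ± 0.22 and not called (adjusted p = 0.126).

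The change of the partner effect between times was called in 5 of 149 tested members, all with a larger shFabp7 over ctrl ratio at 48H than at 24H. That is 3.36% higher and none lower, where 4.43% of all genes were called higher and 1.17% lower. The 5 were Igkv4-69 (1.34 ± 0.31, adjusted p = 0.00854), Igkv12-98 (2.78 ± 0.71, adjusted p = 0.0162), Ighg2b (0.92 ± 0.25, adjusted p = 0.0245), Igkv3-7 (1.65 ± 0.45, adjusted p = 0.0246) and Igkv13-85 (3.37 ± 1.01, adjusted p = 0.0444). At an unadjusted p under 0.05 there were 16, where 19.1% of all genes passed. The count of 5 became 1 without replicate 3 of shFabp7 24H, 2 or 3 without any 1 of the other shFabp7 24H libraries, the ctrl 24H libraries or replicate 2 of ctrl 48H, and 10 with no filter on low counts. Igkv12-98 differs from the others in that its partner difference lay at 24H. At 48H it had 0.784, 0.113 and 0.249 CPM in shFabp7 48H, against 0.245, 0.232 and 0.101 CPM in ctrl 48H, and replicate 1 of shFabp7 48H stands apart there. Without that library its change of the partner effect was 1.67 and no longer called. The other 4 calls were also lost on omission of at least 1 library, Igkv4-69 without replicate 2 of ctrl 24H (1.10) and, in several omissions each, Ighg2b (0.74 to 1.29), Igkv3-7 (1.36 to 1.93) and Igkv13-85 (2.53 to 4.56).

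Ratios between immunoglobulin genes in the same library differ from levels in that the total of immunoglobulin RNA and the library scaling cancel. Igkc counts per 100 Ighm counts were 44.9, 47.3 and 46.1 in shFabp7 48H and 38.8, 36.5 and 39.5 in ctrl 48H, against 46.1, 46.9 and 46.4 in shFabp7 24H and 45.4, 45.4 and 44.1 in ctrl 24H. The ctrl 48H libraries lay below the other 9 libraries, which spanned 44.1 to 47.3. The shFabp7 minus ctrl difference of means was 7.84 at 48H (6.97 to 8.45 on omission of any 1 library) and 1.50 at 24H (1.05 to 1.74). With 3 libraries against 3, an exact two-sided test cannot go below 0.1, and none was made.

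The same arrangement appeared for Igha relative to Ighm. It stood at 15.5, 14.0 and 14.4 Igha counts per 100 Ighm counts in shFabp7 48H and 10.4, 12.02 and 11.4 in ctrl 48H, against 14.4, 14.4 and 15.6 in shFabp7 24H and 13.8, 13.7 and 13.04 in ctrl 24H. The ctrl 48H libraries were again the lowest 3 of the 12, and the difference of means at 48H was 3.38 (2.94 to 3.76 on omission of a library). Ighm accordingly took 82.6 to 83.5% of heavy constant counts in shFabp7 48H and 86.0 to 87.5% in ctrl 48H, against 83.8 to 84.3% in shFabp7 24H and 84.6 to 85.7% in ctrl 24H. Both ratios share the Ighm counts, so they are not separate evidence.

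**Figure D4:**
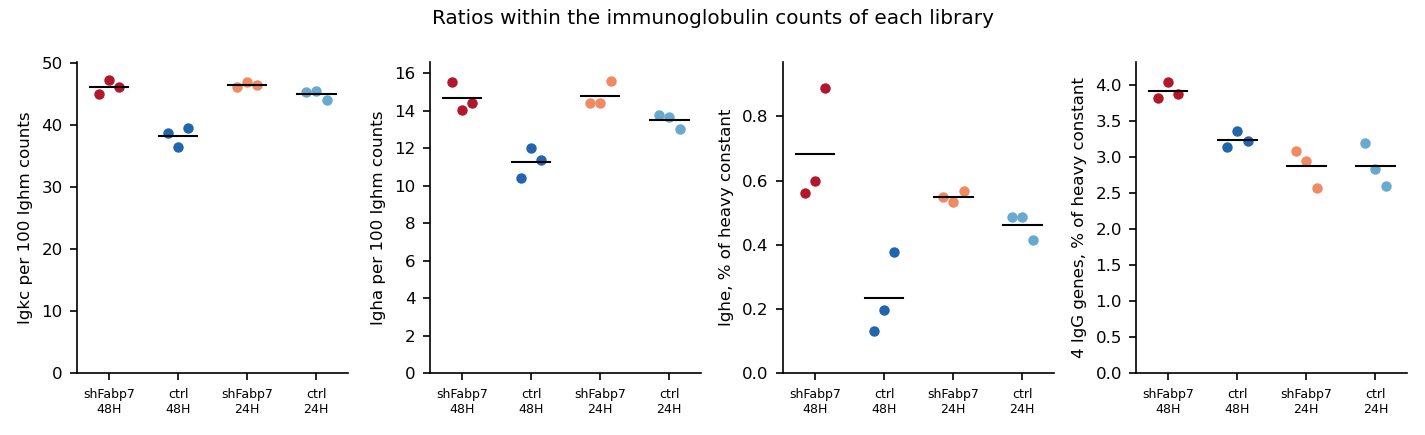
Ratios within each library, from left to right Igkc and Igha per 100 Ighm counts, and Ighe and the 4 IgG genes as a percent of heavy constant counts, 1 point a library with a line at the mean of 3. The 3 libraries of ctrl 48H lie below the other 9 in the first 3 panels, and the IgG share is highest in shFabp7 48H.

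The rest of the heavy constant counts belonged to Ighd, unswitched like Ighm, and to the switched classes. Ighd held 0.0996 to 0.228% in shFabp7 48H and 0.109 to 0.155% in ctrl 48H, against 0.0200 to 0.1001% in shFabp7 24H and 0.0752 to 0.0994% in ctrl 24H. Ighe held 0.563, 0.598 and 0.887% in shFabp7 48H and 0.132, 0.198 and 0.377% in ctrl 48H, against 0.532 to 0.567% in shFabp7 24H and 0.416 to 0.487% in ctrl 24H. The 4 IgG genes together held 3.81 to 4.04% in shFabp7 48H and 3.14 to 3.36% in ctrl 48H, against 2.57 to 3.09% in shFabp7 24H and 2.60 to 3.20% in ctrl 24H. The IgG share at 48H did not overlap between partners, and the shFabp7 48H libraries were the highest 3 of the 12. Igha held 11.7 to 12.8% in shFabp7 48H and 9.10 to 10.3% in ctrl 48H, against 12.1 to 13.04% in shFabp7 24H and 11.2 to 11.6% in ctrl 24H.

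The proportion of V to constant counts varied less. Heavy V counts per 100 heavy constant counts were 8.43 to 9.39 in shFabp7 48H and 8.17 to 9.38 in ctrl 48H, against 8.75 to 9.09 in shFabp7 24H and 8.25 to 9.13 in ctrl 24H. Kappa V counts per 100 Igkc counts were 63.7 to 64.6 in shFabp7 48H and 61.8 to 65.8 in ctrl 48H, against 58.4 to 61.6 in shFabp7 24H and 63.3 to 64.2 in ctrl 24H. The heavy ratio overlapped between all groups, and the kappa ratio was lowest in the 3 libraries of shFabp7 24H.

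The V repertoire remained broad at both times. Of the heavy V members, 71 to 76 had a count in a library of shFabp7 48H and 68 to 76 in ctrl 48H, against 82 to 85 in shFabp7 24H and 85 to 86 in ctrl 24H, and fewer immunoglobulin counts were read at 48H. The 10 most counted heavy V segments of a library held 44.8 to 47.2% of its heavy V counts in shFabp7 48H and 43.3 to 50.5% in ctrl 48H, against 45.1 to 46.4% in shFabp7 24H and 44.7 to 48.0% in ctrl 24H. The effective number of segments, the inverse of the summed squared shares, was 30.6 to 33.9 for the heavy locus in shFabp7 48H and 27.4 to 34.4 in ctrl 48H, against 30.1 to 32.4 in shFabp7 24H and 30.2 to 32.6 in ctrl 24H. The groups overlapped in both measures.

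The kappa repertoire was a little less even at 48H. The effective number was 28.1 to 31.0 in shFabp7 48H and 27.8 to 30.6 in ctrl 48H, against 32.0 to 38.4 in shFabp7 24H and 32.8 to 34.6 in ctrl 24H, without overlap between the times. The 10 leading segments held 44.8 to 48.1% of kappa V counts in shFabp7 48H and 46.3 to 48.7% in ctrl 48H, against 39.0 to 45.9% in shFabp7 24H and 42.7 to 45.2% in ctrl 24H. Rank correlations of segment counts between pairs of libraries, which share segment lengths and mappability, ran from 0.660 to 0.879 for heavy V and from 0.839 to 0.947 for kappa V segments. The Ighv1 family, with 43 members the largest here, held 35.5 ± 3.29% of heavy V counts in shFabp7 48H and 37.9 ± 4.80% in ctrl 48H, against 38.9 ± 0.467% in shFabp7 24H and 38.2 ± 1.66% in ctrl 24H.

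Relative to counting noise, the median spread between replicates was larger in the members than over all genes. The dispersion index of a gene, its spread within groups relative to that of pure counting noise, had a median of 5.37 over the tested members, beside 2.98 over all genes tested, and was highest among members for Ighm (239). At the same relative spread this index grows with the count, so it does not compare relative spread between genes of unlike level. Replicate 3 had the highest summed level of the members in all 4 groups, at 757 CPM in shFabp7 48H and 663 CPM in ctrl 48H, against 1819 CPM in shFabp7 24H and 1727 CPM in ctrl 24H. Over all genes, the deviations of same-numbered libraries had correlations of -0.067 to 0.0363, so the numbers were not used to pair libraries.

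Genes of the B lineage other than the immunoglobulin loci did not share 1 direction. Jchain, the joining chain of IgM and IgA polymers made by plasma cells, moved with the members, with 19.1, 19.9 and 27.9 CPM in shFabp7 48H and 16.5, 16.002 and 25.3 CPM in ctrl 48H, against 59.6, 56.5 and 65.7 CPM in shFabp7 24H and 57.4, 59.8 and 58.2 CPM in ctrl 24H. It fell by 1.45 ± 0.19 with the shFabp7 partner (adjusted p = 0.000101) and by 1.60 ± 0.19 with the ctrl partner (adjusted p = 4.94e-05). Per 100 Igkc counts, Jchain had 14.8 to 16.8 in shFabp7 48H, 13.8 to 18.8 in ctrl 48H, 15.5 to 17.1 in shFabp7 24H and 15.6 to 16.6 in ctrl 24H, so the groups overlapped in this ratio.

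Surface genes of B cells moved in different directions over time. Cd79b, a signalling chain of the B cell receptor, had 10.1, 8.06 and 10.7 CPM in shFabp7 48H and 11.3, 10.8 and 13.04 CPM in ctrl 48H, against 5.22, 3.86 and 4.54 CPM in shFabp7 24H and 5.10, 4.47 and 5.01 CPM in ctrl 24H. It rose by 1.08 ± 0.13 with the shFabp7 partner (adjusted p = 4.9e-09) and by 1.27 ± 0.12 with the ctrl partner (adjusted p = 5.67e-11). Cd79a, the other signalling chain, had 2.76, 3.42 and 3.13 CPM in shFabp7 48H and 2.59, 2.19 and 2.87 CPM in ctrl 48H, against 2.85, 2.85 and 2.70 CPM in shFabp7 24H and 2.55, 3.35 and 3.58 CPM in ctrl 24H. Cd79a was not called over time (0.14, adjusted p = 0.481, and -0.31, adjusted p = 0.111).

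Ms4a1, which encodes CD20, averaged 0.645 ± 0.259 CPM in shFabp7 48H and 0.878 ± 0.330 CPM in ctrl 48H, against 1.27 ± 0.368 CPM in shFabp7 24H and 1.05 ± 0.0562 CPM in ctrl 24H, and was called lower with the shFabp7 partner (-0.98 ± 0.32, adjusted p = 0.0084) but not with the ctrl partner (-0.24, adjusted p = 0.503). Whether the time change of Ms4a1 differs between partners was not shown, as the change of the partner effect had an adjusted p of 0.405.

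**Figure D5:**
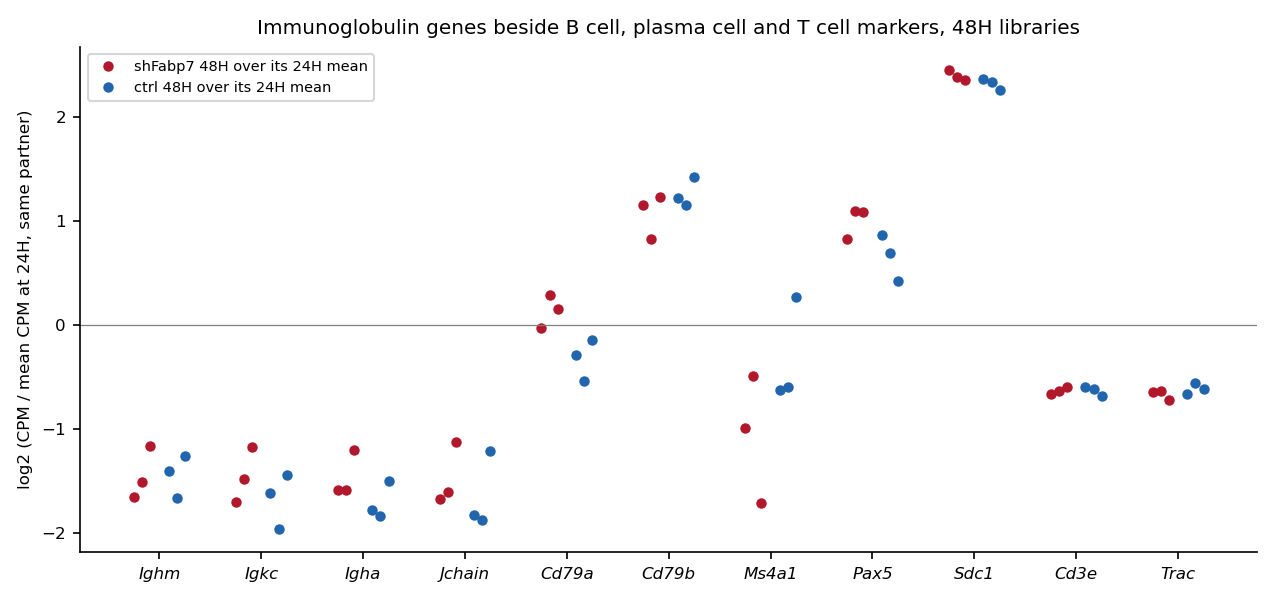
Log2 of the level of each 48H library over the mean of the 24H libraries of the same partner, for 4 genes of antibody chains, 5 B-lineage genes and 2 T cell genes, shFabp7 partner in red and ctrl partner in blue. Ighm, Igkc, Igha and Jchain lie between -1 and -2, Cd79b and Sdc1 lie above 0, and Cd3e and Trac lie between 0 and -1.

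Of the 15 genes of the B cell marker list, 14 were tested. Over time 7 rose (50%) and 2 fell (14.3%) with the shFabp7 partner, 5 (35.7%) and 1 (7.14%) with the ctrl partner. Over all genes tested, 35.9% rose and 30.2% fell with the shFabp7 partner, and 35.8% and 32.0% with the ctrl partner. Pax5, Ebf1 and Spib, transcription factors of B cells (Spib also of dendritic cells), rose by 1.01 ± 0.22, 1.34 ± 0.40 and 2.39 ± 0.23 with the shFabp7 partner and by 0.68 ± 0.22, 1.19 ± 0.40 and 1.68 ± 0.22 with the ctrl partner. Fcer2a, the low-affinity IgE receptor CD23, fell by 1.73 ± 0.32 and 1.74 ± 0.29. The list summed to 49.4 to 51.0 CPM in shFabp7 48H and 55.6 to 59.0 CPM in ctrl 48H, against 27.0 to 30.7 CPM in shFabp7 24H and 33.4 to 36.2 CPM in ctrl 24H, opposite in direction to the immunoglobulin sum. Cd72, an inhibitory co-receptor of B cells, Cd79b and Spib carried this difference, with Cd72 at 20.8 ± 1.85 CPM in shFabp7 48H and 27.2 ± 0.984 CPM in ctrl 48H, against 10.3 ± 1.37 CPM in shFabp7 24H and 14.0 ± 1.01 CPM in ctrl 24H. Without these 3 genes, left out after their values were seen, the list summed to 14.3 to 16.4 CPM in shFabp7 48H and 12.9 to 16.4 CPM in ctrl 48H, against 12.3 to 15.3 CPM in shFabp7 24H and 14.6 to 15.7 CPM in ctrl 24H, and the groups overlapped. The list's median log2 fold change over time was 0.51 with the shFabp7 partner and 0.05 with the ctrl partner. Between partners 1 of the 14 was called at each time, Cd72, lower with the shFabp7 partner by 0.39 ± 0.08 at 48H (adjusted p = 0.000409) and by 0.44 ± 0.09 at 24H (adjusted p = 0.00273).

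The plasma cell list, 10 of 11 tested, had 3 genes up (30%) and 3 down (30%) over time with the shFabp7 partner. With the ctrl partner 3 were up (30%) and 4 down (40%). These shares lie near those over all genes, 35.9% up and 30.2% down with the shFabp7 partner, 35.8% and 32.0% with the ctrl partner. Between partners, 4 of the 10 were called higher with the shFabp7 partner at 48H (40%, where 19.9% of all genes were) and none lower. At 24H 2 were called higher (20%, where 6.22% of all genes were) and none lower. Sdc1, the plasma cell surface proteoglycan CD138, which other cells express too, had 13.2, 12.6 and 12.3 CPM in shFabp7 48H and 11.04, 10.8 and 10.2 CPM in ctrl 48H, against 2.31, 2.72 and 2.19 CPM in shFabp7 24H and 1.87, 2.56 and 1.96 CPM in ctrl 24H, and rose by 2.40 ± 0.13 and 2.32 ± 0.13. Mzb1, a chaperone of IgM assembly, stayed between 0.339 and 1.14 CPM and was not called in any comparison. The list's sum of 1164 to 1211 CPM in shFabp7 48H and 914 to 1005 CPM in ctrl 48H, against 1555 to 1655 CPM in shFabp7 24H and 1486 to 1636 CPM in ctrl 24H, was mostly Irf4 and Xbp1, which activated T cells also express. Of the B cell precursor and recombination list, 5 of 10 were tested, Rag2 and Vpreb2 had no count in any library, and Rag1 was at most 0.0849 CPM.

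The defining genes of T cells, the labelled cell type, were present at high level in every library. Cd3e had 260.0, 265 and 272 CPM in shFabp7 48H and 271, 268 and 254 CPM in ctrl 48H, against 412, 402 and 419 CPM in shFabp7 24H and 403, 396 and 425 CPM in ctrl 24H, a fall of 0.63 ± 0.05 with either partner. Trac, the T cell receptor alpha constant gene, fell by 0.66 ± 0.05 with the shFabp7 partner and by 0.61 ± 0.05 with the ctrl partner. The T cell list summed to 3290 to 3391 CPM in shFabp7 48H and 3237 to 3261 CPM in ctrl 48H, against 3793 to 3974 CPM in shFabp7 24H and 3870 to 4088 CPM in ctrl 24H. Of the 12 genes of the list, 9 were called lower (75%) and 3 higher (25%) over time with each partner. Over all genes, 30.2% were lower and 35.9% higher with the shFabp7 partner, 32.0% and 35.8% with the ctrl partner. The list's median log2 fold change was -0.55 with the shFabp7 partner and -0.58 with the ctrl partner. Cd8a, the co-receptor chain of cytotoxic T cells, fell by 1.29 ± 0.05 with the shFabp7 partner and 1.13 ± 0.05 with the ctrl partner, as far as some of the immunoglobulin genes. Thy1, a surface protein of T cells, rose by 0.86 ± 0.05 and 0.55 ± 0.05, Cd4, the co-receptor of helper T cells, by 0.39 ± 0.05 and 0.29 ± 0.05, and Cd3g, a chain of the T cell receptor complex, by 0.17 ± 0.05 and 0.21 ± 0.05, in the same order of partners. Cd8a, Thy1, Cd4 and Cd3g were named after their values were seen.

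Markers of other blood cells were low, apart from those that lymphocytes share. Monocyte and macrophage genes summed to 16.1 to 17.5 CPM in shFabp7 48H and 15.9 to 20.7 CPM in ctrl 48H, against 14.5 to 16.5 CPM in shFabp7 24H and 16.5 to 17.9 CPM in ctrl 24H. Neutrophil genes summed to 2.99 to 3.85 CPM in shFabp7 48H and 4.35 to 9.27 CPM in ctrl 48H, against 5.90 to 6.73 CPM in shFabp7 24H and 5.69 to 10.0 CPM in ctrl 24H, with Retnlg at 0. Dendritic cell genes summed to 34.3 to 36.5 CPM in shFabp7 48H and 32.7 to 37.2 CPM in ctrl 48H, against 11.3 to 12.05 CPM in shFabp7 24H and 10.9 to 13.2 CPM in ctrl 24H, with Cd209a at 0. Platelet genes summed to 8.25 to 19.02 CPM. Over time, 3 of the 3 tested rose with the shFabp7 partner and 2 with the ctrl partner, where 35.9% and 35.8% of all genes rose. Erythroid genes summed to at most 1.23 CPM. NK cell genes summed to 137 to 164 CPM with no call over time. Nearly all of this sum was Eomes, averaging 140 CPM in shFabp7 48H, 150 in ctrl 48H, 150 in shFabp7 24H and 154 in ctrl 24H. Each other NK cell gene had at most 0.881 CPM in any library. Between partners at 48H, 5 of these genes were called, all lower with the shFabp7 partner. They were 2 of 4 tested neutrophil genes, 1 of 6 monocyte and macrophage genes, 1 of 4 NK cell genes and 1 of 3 platelet genes. None of the tested dendritic cell and erythroid genes was called. Over all genes tested, 11.6% were called lower and 19.9% higher. Of the 12 genes of the T cell list, 5 (41.7%) were called lower and 1 (8.33%) higher in the same comparison. S100a8 and S100a9, calcium-binding proteins of neutrophils, differed by -2.24 ± 0.40 (adjusted p = 3.86e-05) and -1.41 ± 0.32 (adjusted p = 0.00119), and Lyz2, the lysozyme of macrophages and neutrophils, by -0.76 ± 0.25 (adjusted p = 0.0173). Klrb1c, an NK cell receptor, differed by -1.51 ± 0.46 (adjusted p = 0.0106) and Itga2b, a platelet integrin, by -0.39 ± 0.11 (adjusted p = 0.00717). S100a8, S100a9 and Klrb1c were of low level, averaging 0.241, 0.904 and 0.242 CPM in shFabp7 48H and 1.14, 2.38 and 0.688 CPM in ctrl 48H. At 24H S100a9 was called (-1.20 ± 0.38, adjusted p = 0.041). The part of these cells in the immunoglobulin results, between partners and over time, was not tested.

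Genes that act on the immunoglobulin loci or on antibody were described by lists in the same test. Over all genes tested, 35.9% were called higher and 30.2% lower over time with the shFabp7 partner, 35.8% and 32.0% with the ctrl partner, and 19.9% and 11.6% between partners at 48H. Of 19 tested genes of B cell receptor signalling, many of which T cells share, 11 rose (57.9%) and 1 fell over time with the shFabp7 partner and 9 rose (47.4%) and 3 fell with the ctrl partner. Plcg2, the phospholipase of the B cell receptor pathway, rose by 1.28 ± 0.09 with the shFabp7 partner and by 0.86 ± 0.09 with the ctrl partner, and this difference was called (0.42 ± 0.13, adjusted p = 0.0466). Of 10 tested class switching and germinal centre genes, 5 rose (50%) and 2 fell between partners at 48H and 4 rose at 24H (40.0%, where 6.22% of all genes did). Batf was higher with the shFabp7 partner by 0.43 ± 0.06 at 48H and 0.30 ± 0.06 at 24H, and Bcl6 was lower by 0.38 ± 0.08 at 48H.

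Receptors for antibody changed in different directions. Fcgr2b, the inhibitory IgG receptor, had 1.57, 1.78 and 1.41 CPM in shFabp7 48H, against 3.08, 2.83 and 3.07 CPM in ctrl 48H, and 1.06, 1.17 and 1.17 CPM in shFabp7 24H, against 1.51, 1.99 and 2.65 CPM in ctrl 24H. It was lower with the shFabp7 partner by 0.91 ± 0.20 at 48H (adjusted p = 0.000635) and by 0.85 ± 0.23 at 24H (adjusted p = 0.013). Fcmr, the IgM receptor, rose over time by 3.35 ± 0.29 with the shFabp7 partner and by 3.09 ± 0.31 with the ctrl partner, with 4.92, 4.58 and 4.60 CPM in shFabp7 48H and 2.10, 3.34 and 3.95 CPM in ctrl 48H. Fcer1a, a chain of the high-affinity IgE receptor of mast cells and basophils, rose by 3.08 ± 0.39 and 2.99 ± 0.37. Of the 10 tested receptors, 4 rose (40.0%) and 3 fell (30.0%) over time with each partner, which is near the shares over all genes.

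Of 14 transcription factors that act at immunoglobulin enhancers and promoters, 5 rose (35.7%) and 7 fell (50%) over time with the shFabp7 partner. With the ctrl partner 5 rose (35.7%) and 6 fell (42.9%). The share that rose lies near that over all genes, and the share that fell lies above the 30.2% and 32.0% of all genes. Irf4, which is needed for plasma cells and is also induced by T cell receptor signals, had 730.1, 707 and 740.2 CPM in shFabp7 48H and 594, 529 and 502 CPM in ctrl 48H, against 1176, 1135 and 1085 CPM in shFabp7 24H and 1047, 1139 and 1185 CPM in ctrl 24H. It was higher with the shFabp7 partner at 48H by 0.42 ± 0.06 (adjusted p = 7.96e-07) and its partner effect changed between times by 0.41 ± 0.08 (adjusted p = 0.00249). Of 14 genes of antibody folding and secretion, which serve secreted proteins of every cell, 9 rose (64.3%) and 1 fell between partners at 48H, and 9 had a partner effect called larger at 48H than at 24H, where 4.43% of all genes did. Hspa5, the endoplasmic reticulum chaperone that was first known for binding heavy chains, had 668, 662 and 668 CPM in shFabp7 48H and 469, 478 and 485 CPM in ctrl 48H (0.48 ± 0.05, adjusted p = 8.16e-09). Manf, a secreted chaperone-associated factor, had 158, 158 and 159 CPM in shFabp7 48H and 107, 104 and 103 CPM in ctrl 48H (0.60 ± 0.05, adjusted p = 1.02e-10).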

How the data were processed

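The 12 libraries, 4 groups of 3, were made from total RNA isolated with Triazol, per the labels. The authors deposited 1 table of read counts by gene symbol, in whole numbers, neither normalized nor pooled. HTSeq 0.6.1p1, TopHat2 2.0.13, CASAVA 1.8.2 and the build GRCm39 are named in the submitters' processing notes. The sources used here do not give their settings, the strand mode or the handling of reads that match several genes, which bears on near-identical V segments and on overlapping genes.

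A filter on low counts (filterByExpr, a minimum of 10 counts and 15 in total) kept 16945 of 53762 genes and 149 of 202 members. After TMM scaling, edgeR 4.0.16 in R 4.3.3 ran its robust quasi-likelihood test, with a coefficient for each group and all 12 libraries in the fit. Benjamini-Hochberg adjusted p-values cover all genes tested, and the threshold was 0.05. The 5 comparisons were shFabp7 against ctrl partner at 24H and at 48H, the difference of these, and 48H against 24H with each partner. Comparisons between partners share libraries with those over time, and the comparisons over time share none with each other. CPM use TMM-scaled library sizes, summed levels and within-library ratios got no test, and the steps were tested on simulated data.

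The members and gene lists were chosen with earlier results of these data known. Named were all constant genes, the 5 most abundant V segments of the heavy and kappa loci, the 3 lambda V and 5 J segments most abundant, up to 4 called members per direction and comparison by fold change with at least 0.5 CPM in a compared group, and a few genes of each list. A few genes selected in this way are not reported here. Segment identity and shared 50-base stretches come from GENCODE M21 transcripts (GRCm38), aligned with Biopython 1.88, and no coordinates were used. No library was a duplicate of another of its group (chi-square of their counts 4.34 to 14.2 per degree of freedom). Alternatives were DESeq2 1.42.0, other scalings and filters, the replicate number as a block, a fit on the compared groups alone and the omission of each library. The omissions for ratios to Ighm were chosen after seeing the data.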

Additional observations from a re-analysis of the deposited data

Results flagged for a closer look

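In 5 immunoglobulin members the shFabp7 over ctrl ratio differed between 48H and 24H by a test of that difference, edgeR's interaction contrast over all 12 libraries. They are 3.36% of the 149 tested members, all called higher, where 4.43% of all genes were called higher and 1.17% lower. The change of the log2 ratio, 48H minus 24H, was 1.34 for Igkv4-69 (adjusted p = 0.00854), 2.78 for Igkv12-98 (adjusted p = 0.0162), 0.92 for Ighg2b (adjusted p = 0.0245), 1.65 for Igkv3-7 (adjusted p = 0.0246) and 3.37 for Igkv13-85 (adjusted p = 0.0444). In Igkv12-98 the partner difference itself was called at 24H, in the other 4 at 48H. Groups of 3 libraries are too small for a test of single outlying libraries.

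Each of these calls was lost on omission of at least 1 library. Igkv4-69 was lost without replicate 2 of ctrl 24H (1.10). Igkv12-98 was lost in 4 omissions (1.67 without replicate 1 of shFabp7 48H), Ighg2b in 8 and Igkv3-7 in 6. Igkv13-85 was lost in 10 omissions and under upper-quartile scaling, library totals and the replicate block.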

How the results depend on the processing

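The time result held in every alternative run, with 88 to 134 members called with the shFabp7 partner (118 as reported, DESeq2 113, omission of 1 library 104 to 120) and 91 to 138 with the ctrl partner (123 as reported, DESeq2 122, omissions 107 to 125). At 48H the partner count of 12 ran from 9 to 18 (DESeq2 13, omissions 10 to 17). The count of 1 at 24H became 5 without a filter, 0 under the stricter filter (CPM of 1 in 3 libraries and 100 counts), 0 with DESeq2 and 5 with the 2 groups alone, and 0 to 3 on omissions (0 without replicate 1 and 3 without replicate 2 of ctrl 24H). The count of 5 for the change of the partner effect became 10 without a filter and 3 under the stricter filter, and 1 to 6 on omissions (1 without replicate 3 of shFabp7 24H). The cause was not tested. Replicate numbers did not pair the libraries (correlations of same-numbered deviations over all genes -0.067 to 0.0363, though replicate 3 had the highest immunoglobulin sum in all 4 groups), and with the replicate block the counts were 1, 13, 5, 114 and 125 in the order of the comparisons. The summed level over time with the ctrl partner was -1.34 under library totals against -1.53, a scaling that moved the median of all genes to 0.23 from 0.04 (shFabp7 partner 0.21 from 0.06). On omissions the summed level ran from -1.56 to -1.30 with the shFabp7 partner and from -1.63 to -1.41 with the ctrl partner over time, from -0.02 to 0.23 between partners at 48H and from -0.06 to 0.09 at 24H. Of 1156 alternatives to 83 calls of named members, 1074 kept direction and call, 82 lost the call and 0 reversed. Alternatives in which the member was not tested or got no adjusted p are left out of the 1156. Depth was not varied, and its part in the calls on members of low count was not tested.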
